A study of Rattus norvegicus with 8 samples.

Results

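Splicing factors were examined in the livers of rats given thioacetamide, a hepatotoxicant that liver enzymes convert to reactive metabolites. Members were the probe sets of the array whose gene symbol starts with Snrp, Prpf, Lsm, Hnrnp, Hnrp, Srsf, Sfrs, Sf3a or Sf3b, either in the files' own annotation or as the current RefSeq symbol of the same gene. This gave 108 of 26208 probe sets, standing for 94 genes. The livers were from male F344/N rats. The 4 arrays of the treated group were from rats that received thioacetamide over 28 days, and the 4 control arrays from untreated rats on basal diet with tap water, all on NimbleGen arrays read in 1 colour (Cy3). Both groups carry gavage as the route in their labels, and neither a dose nor an age is stated.

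The spliceosome removes introns from pre-mRNA. It assembles anew on each intron from small nuclear ribonucleoprotein particles (snRNPs), in which a ring of Sm or LSm proteins holds a small nuclear RNA. The U1 particle recognises the 5′ splice site, the U2 particle with its SF3A and SF3B complexes binds the branch point, and the U4/U6.U5 tri-snRNP then joins to form the catalytic machine. Serine- and arginine-rich (SR) proteins mostly favour, and many heterogeneous nuclear ribonucleoproteins (hnRNPs) often oppose, the use of nearby splice sites.

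All values are log2 expression values as deposited, after RMA, and differences are thioacetamide minus control with the standard error of the limma fit. A probe set passed when its p, adjusted over all 26208 probe sets by the Benjamini-Hochberg method, was under 0.05. The 95th percentile of the olfactory receptor probe sets of an array, genes of the nose rather than the liver, served as background, and its range was 6.95 to 7.94 on control and 6.54 to 6.95 on treated arrays. Of the 108 members, 88 were above it on all 8 arrays and 6 on none. Hepatocyte markers were near the array maxima in both groups (Alb, albumin, 15.73 ± 0.07 and 15.70 ± 0.11, SD, n = 4 each). Control replicates 2 and 3 had the highest backgrounds (7.36 and 7.94), and thioacetamide replicate 4 the highest among treated arrays (6.95). Control replicate 3 also had the lowest mean correlation with the arrays of its own group, 0.9346 across probe sets, the others reaching at least 0.9545. These are called the 3 high-background arrays below, although the background of control replicate 4 (6.98) was slightly above that of thioacetamide replicate 4. Counts without the 3 are given further below.

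The promoters of 4 members whose differences passed in every setting tried are shown first, since these genes carry the firmest results below. They are windows from 250 bases before to 50 bases after the annotated start, from RefSeq on GRCr8, written 5′ to 3′ on the gene's strand, for Snrpc, Sf3a3, Hnrnph1 and Srsf9. Capitals mark GGGCGG, the GC box, or its reverse complement. The searches, on both strands, also covered the CCAAT box, the E-box CACGTG and the E2F-type motif TTCGCGC, and no motif searched overlaps another in these windows.
Snrpc, chr20:5889979-5890278 (plus strand): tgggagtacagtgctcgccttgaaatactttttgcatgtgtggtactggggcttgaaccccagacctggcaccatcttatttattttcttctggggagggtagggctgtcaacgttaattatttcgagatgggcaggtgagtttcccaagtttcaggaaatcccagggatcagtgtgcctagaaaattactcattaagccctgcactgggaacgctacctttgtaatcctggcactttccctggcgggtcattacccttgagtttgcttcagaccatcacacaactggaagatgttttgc
Sf3a3, chr5:142252157-142252456 (plus strand): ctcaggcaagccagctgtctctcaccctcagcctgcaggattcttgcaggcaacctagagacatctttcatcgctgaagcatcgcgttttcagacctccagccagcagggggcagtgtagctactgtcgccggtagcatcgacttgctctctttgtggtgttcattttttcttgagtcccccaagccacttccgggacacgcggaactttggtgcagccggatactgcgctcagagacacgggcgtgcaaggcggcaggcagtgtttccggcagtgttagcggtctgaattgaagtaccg
Hnrnph1, chr10:35194383-35194682 (plus strand): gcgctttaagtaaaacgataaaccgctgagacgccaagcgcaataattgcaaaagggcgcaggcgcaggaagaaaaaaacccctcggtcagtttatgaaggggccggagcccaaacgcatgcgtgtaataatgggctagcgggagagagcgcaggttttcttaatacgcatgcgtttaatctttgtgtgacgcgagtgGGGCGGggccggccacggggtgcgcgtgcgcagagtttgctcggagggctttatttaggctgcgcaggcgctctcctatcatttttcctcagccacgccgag
Srsf9, chr12:46945098-46945397 (minus strand): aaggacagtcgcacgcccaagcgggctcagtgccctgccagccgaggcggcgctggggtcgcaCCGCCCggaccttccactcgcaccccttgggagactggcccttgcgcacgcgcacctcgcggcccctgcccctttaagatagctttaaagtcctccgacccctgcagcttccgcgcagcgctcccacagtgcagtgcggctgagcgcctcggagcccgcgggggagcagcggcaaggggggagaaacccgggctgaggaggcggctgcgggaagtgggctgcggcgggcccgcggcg

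GGGCGG, the GC box, was present once in the Hnrnph1 window and once in the Srsf9 window, and none of the searched motifs was found in those of Snrpc and Sf3a3. Among all 33469 promoter windows in RefSeq's set, 33.1% held GGGCGG, 37.5% CCAAT, 6.42% CACGTG and 1.51% TTCGCGC. For the members, 76 of 94 genes were matched, with 82 windows, of which 59.8% held GGGCGG, 48.8% CCAAT, 12.2% CACGTG and 6.1% TTCGCGC. Of the 10 matched windows of members that rose, 5 held GGGCGG and 1 held CCAAT. A match describes the letters of the window only.

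Across the whole family the difference was small and mostly upward, with single members moving much further. Of 108 probe sets, 12 rose (11.1%) and 2 fell (1.85%), where 9.46% of all probe sets rose and 5.14% fell. In this fit the share that rose was close to that of the whole array, which did not hold in every setting. At an unadjusted limma p under 0.05 the counts were 33 higher and 2 lower, where 4440 of all 26208 probe sets were higher and 3299 lower. The median difference was 0.23 over the members and -0.04 over all probe sets. A positive difference was found in 79 members and a negative one in 29, against 12426 and 13782 of all probe sets. In whole liver RNA, a change in the number of cells of a type and a change in RNA per cell cannot be told apart.

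Since 95 of the 108 members had a mean above the median background level of 6.95, the 14240 probe sets of the array that did so are a closer comparison. Of these 24.0% passed in either direction. Within them, 12 of 95 members rose (12.6%, against 15.5% of all) and 2 fell (2.11%, against 8.46%), with a median of 0.29 against 0.13. At an unadjusted limma p under 0.05, 32 of the 95 members and 3835 of the 14240 were higher. Positive differences were found in 75 of the 95 and in 8104 of the 14240. The members with groups that did not overlap numbered 30 higher and 2 lower of 108, where 13.9% of all probe sets did not overlap in the higher and 7.55% in the lower direction. Among the brighter probe sets the higher direction held 31.6% of the members against 23.0% of all. Median levels of the 108 members were 11.42, 11.22, 11.51 and 11.46 on control arrays 1 to 4 and 11.63, 11.75, 11.50 and 11.89 on thioacetamide arrays 1 to 4, so that thioacetamide replicate 3 lay within the control range and the other treated arrays above it.

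The count of risers depended on the setting in both directions. It rose to 20 with array weights (18.5%, against 11.5% of all probe sets), to 25 of 95 with dim probe sets left out (26.3%, against 19.8%) and to 26 with an intensity trend and robust estimation (24.1%, against 10.5%). Without control replicates 1 to 4 in turn it was 7, 8, 11 and 10 (6.48%, 7.41%, 10.2% and 9.26%, against 7.85%, 7.3%, 9.07% and 9.29% of all probe sets). Without thioacetamide replicates 1 to 4 in turn it was 5, 4, 6 and 6 (4.63%, 3.7%, 5.56% and 5.56%, against 6.25%, 5.52%, 6.68% and 8.45%). The count of falls was 1 or 2 in these fits, where 2.74% to 5.68% of all probe sets fell. Under cyclic loess 6 members rose (5.56%) and 2 fell, where 7.62% of all probe sets rose and 6.62% fell. With control replicates 2 and 3 left out together with thioacetamide replicate 4, a choice made after seeing the data, 10 rose and 1 fell (9.26% rose, against 8.71% of all probe sets). Of the 14 members that passed, 5 kept their call under all 15 alternatives run on single genes, among them Snrpc, Sf3a3, Hnrnph1 and Srsf9. The other 9 lost it without at least 1 array, as given with each below.

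**Figure D1:**
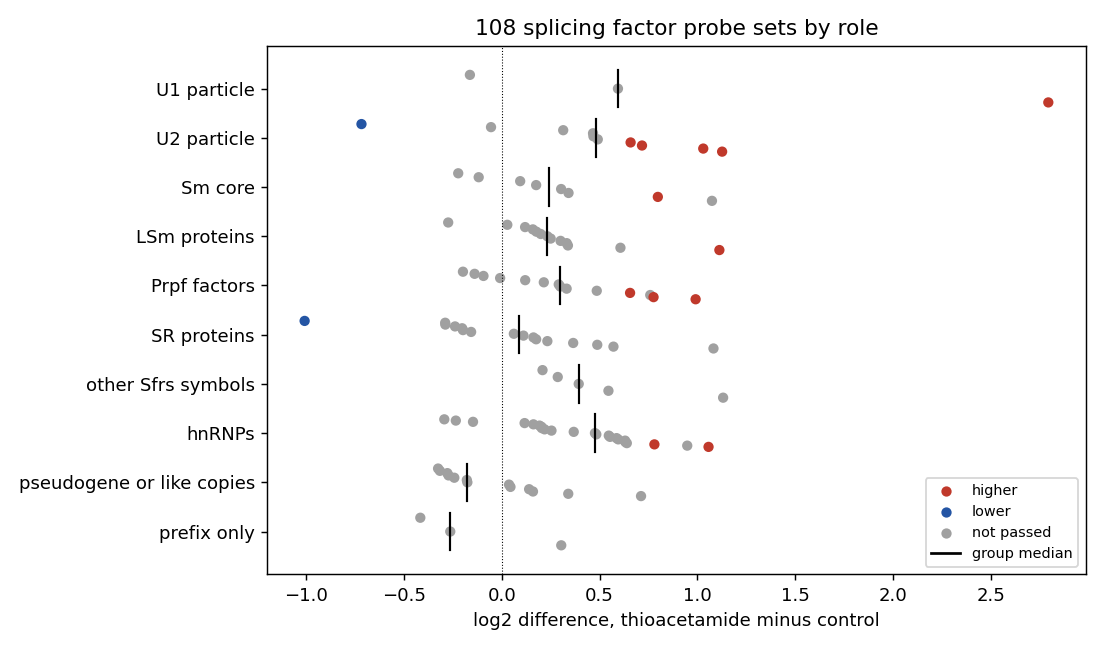
Log2 difference (thioacetamide minus control) of each of the 108 probe sets, grouped by role, with red for a rise past the threshold, blue for a fall past it, grey for not passed and a black line for the group median. Snrpc stands apart at 2.79, the U2 particle and hnRNP medians lie at 0.48 and 0.48, and the pseudogene or like copies centre on -0.18.

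The U1 particle showed the largest change of the family. Snrpc encodes U1-C, the zinc finger protein that helps U1 engage the 5′ splice site. Its probe set read 8.43, 7.66, 6.75 and 8.91 in control replicates 1 to 4 and 10.84, 10.81, 10.89 and 10.37 in thioacetamide replicates 1 to 4. Every treated array lay above every control array, the controls were widely spread, and control replicate 3 lay below its background level. The rise was 6.93-fold (log2 difference 2.79 ± 0.41, adjusted p = 0.00179 in limma), and between 2.40 and 3.12 with 1 array left out. This probe set holds only 2 probes, as do 6592 of all probe sets, where 19600 hold 3. The other U1 proteins did not pass. Snrnp70, which binds the first stem-loop of U1 RNA, differed by -0.16 ± 0.22 (adjusted p = 0.664), and Snrpa (U1-A), which binds the second, by 0.59 ± 0.39 (adjusted p = 0.346), with 3 of 4 control arrays above background. The probe set of Snrpc-ps5, now annotated as a pseudogene of Snrpc, was below background on all 8 arrays (means 5.87 in controls and 5.69 in treated rats) and differed by -0.18 ± 0.26 (adjusted p = 0.697).

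Subunits of SF3A and SF3B, the branch point complexes of the U2 particle, included 4 risers and 1 fall among the 8 measured, where 9.46% of all probe sets and 15.5% of those above background rose, and 3 did not pass. In 7 of the 8 every treated array lay above every control array, where 13.9% of all probe sets and 23.0% of those above background did so. SF3A joins SF3B to make the mature U2 particle, and its 3 subunits were all measured. Sf3a3, a zinc finger subunit, read 9.93, 10.12, 9.79 and 10.02 in control replicates 1 to 4 and 11.08, 11.24, 10.98 and 11.08 in thioacetamide replicates 1 to 4. All treated arrays lay near 11 and all controls near 10, with little spread in either group. This was a 2.18-fold rise (1.13 ± 0.17, adjusted p = 0.00237).

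Sf3a1, the scaffold that binds both other subunits, read 10.92, 10.97, 11.20 and 11.05 in control replicates 1 to 4 and 11.47, 11.80, 11.79 and 11.95 in thioacetamide replicates 1 to 4. The groups did not overlap, and the rise was 1.64-fold (0.72 ± 0.18, adjusted p = 0.028). It lost the threshold with 1 array left out (control replicate 1 or 2, or thioacetamide replicate 2, 3 or 4, adjusted p = 0.0607 to 0.0839) and under cyclic loess (0.58, adjusted p = 0.0813) and without the 3 high-background arrays (0.70, adjusted p = 0.0666). Sf3a2, a zinc finger subunit as well, read 11.82, 11.75, 11.79 and 11.68 in control replicates 1 to 4 and 12.10, 12.20, 12.37 and 12.33 in thioacetamide replicates 1 to 4. These groups did not overlap either, yet the difference, 0.49 ± 0.17, did not pass (adjusted p = 0.0819).

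In SF3B, Sf3b4, which binds pre-mRNA near the branch point, read 9.95, 9.03, 10.14 and 10.17 in control replicates 1 to 4 and 10.65, 11.18, 10.76 and 10.82 in thioacetamide replicates 1 to 4. Control replicate 2 was about 1 unit below the other controls, and all treated arrays were higher than all controls. Its rise was 2.04-fold (1.03 ± 0.28, adjusted p = 0.0341), and the call was lost with 1 array left out (control replicate 1, or thioacetamide replicate 1, 2, 3 or 4, adjusted p = 0.0573 to 0.11) and under cyclic loess (0.83, adjusted p = 0.0828) and without the 3 high-background arrays (0.80, adjusted p = 0.0568). Sf3b2, the partner of Sf3b4 in the complex, read 12.65, 12.30, 12.60 and 12.79 in control replicates 1 to 4 and 13.15, 13.31, 13.04 and 13.47 in thioacetamide replicates 1 to 4. It rose 1.58-fold (0.66 ± 0.19, adjusted p = 0.0464) with no overlap, and this call was lost with 1 array left out (control replicate 1, 2 or 3, or thioacetamide replicate 1, 2, 3 or 4, adjusted p = 0.0615 to 0.126) and under cyclic loess (0.60, adjusted p = 0.061) and under median centring (0.60, adjusted p = 0.0727) and without the 3 high-background arrays (0.45, adjusted p = 0.199).

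Sf3b1, the large subunit that clamps the branch point adenosine and is a frequent target of mutation in blood cancers, differed by 0.47 ± 0.20 (adjusted p = 0.142), and Sf3b3, a propeller-shaped scaffold protein, by 0.47 ± 0.19 (adjusted p = 0.126). Neither passed, though in both the lowest treated array lay above the highest control. Sf3b5, a small subunit bound to Sf3b3, moved the other way, reading 11.76, 11.98, 11.91 and 11.51 in control replicates 1 to 4 and 11.25, 10.72, 10.97 and 11.35 in thioacetamide replicates 1 to 4. All its treated arrays lay below all controls, a 1.64-fold fall (-0.72 ± 0.21, adjusted p = 0.0462) that was lost with 1 array left out (control replicate 1, 2 or 3, or thioacetamide replicate 1, 2 or 3, adjusted p = 0.0737 to 0.142) and without the 3 high-background arrays (-0.65, adjusted p = 0.104). Phf5a, a further SF3B subunit outside the symbol rule, differed by 0.44 ± 0.18 (adjusted p = 0.131). Snrpb2 (U2-B″), which binds the U2 RNA itself, had a bright probe set at 0.31 ± 0.22 and a dim one at -0.05 ± 0.31 (adjusted p = 0.39 and 0.928).

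**Figure D2:**
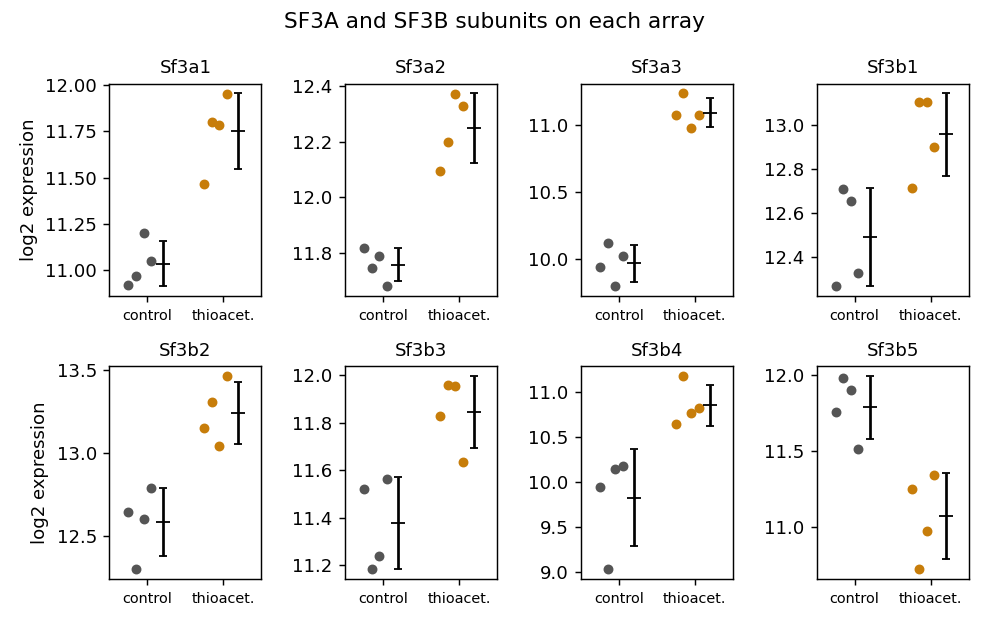
Log2 expression of the 8 SF3A and SF3B subunits on each array (4 control and 4 thioacetamide, each panel with its own axis that does not start at 0), with the mean and SD of each group beside the points. In 7 panels every treated array lies above every control array, and in Sf3b5 every treated array lies below. Of all probe sets 13.9% lay apart in the higher and 7.55% in the lower direction.

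The Sm core and LSm groups held 1 riser each, 12.5% and 7.69% of their probe sets, near the 9.46% of the whole array. Of 8 Sm core probe sets (7 genes), 1 rose and none passed as lower in limma (2 higher and 0 lower with a raw p below 0.05). The median difference was 0.24. Snrpd1 (Sm D1), part of the ring around U1, U2, U4 and U5 RNA, read 10.83, 10.95, 11.25 and 10.46 in control replicates 1 to 4 and 11.57, 11.78, 11.39 and 11.92 in thioacetamide replicates 1 to 4. The groups did not overlap, and it rose 1.74-fold (0.80 ± 0.22, adjusted p = 0.0391). The call was lost with 1 array left out (control replicate 1, 2 or 4, or thioacetamide replicate 1, 2, 3 or 4, adjusted p = 0.0512 to 0.115) and under cyclic loess (0.65, adjusted p = 0.111). Further ring proteins did not pass. Snrpd2 differed by 0.18 (adjusted p = 0.59), Snrpd3 by 0.34 (adjusted p = 0.467), Snrpf by 0.09 (adjusted p = 0.871) and Snrpb by 0.30 (adjusted p = 0.446), and the probe sets of Snrpg by -0.12 (adjusted p = 0.819) and -0.22 (adjusted p = 0.673).

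Snrpn, the imprinted relative of Snrpb known mainly from brain, read 8.84, 8.89, 7.41 and 8.82 in control replicates 1 to 4 and 9.59, 9.74, 9.39 and 9.55 in thioacetamide replicates 1 to 4. Control replicate 3, which was below background, lay far under the other controls, and all treated arrays were higher than all controls, but the difference of 1.07 ± 0.33 did not pass (adjusted p = 0.0533). Snrpe is represented here only by probe sets now annotated as Snrpe-ps1 and Snrpel1, which differed by 0.16 (adjusted p = 0.709) and 0.14 (adjusted p = 0.765).

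The LSm proteins include the Lsm2 to Lsm8 ring of U6 RNA, the Lsm1 to Lsm7 ring of cytoplasmic mRNA decay, and the U7 proteins Lsm10 and Lsm11 of histone pre-mRNA processing, and the group counted also holds Lsm12 and Lsm14a, which are in none of these. Of 13 probe sets (11 genes) 1 rose and none passed as lower (raw p below 0.05 in 1 and 0), and the median was 0.23. Lsm3, shared by the U6 and decay rings, read 10.15, 9.79, 9.00 and 9.85 in control replicates 1 to 4 and 10.96, 10.79, 10.27 and 11.21 in thioacetamide replicates 1 to 4. Control replicate 3 was the lowest array, and the lowest treated array lay just above the highest control. The rise was 2.16-fold (1.11 ± 0.29, adjusted p = 0.0301), lost with 1 array left out (control replicate 2, or thioacetamide replicate 1, 2 or 4, adjusted p = 0.0592 to 0.0871) and without the 3 high-background arrays (0.68, adjusted p = 0.124). Its ring neighbours Lsm4, Lsm5, Lsm7 and Lsm8 differed by 0.18, 0.25, 0.12 and 0.20 (adjusted p = 0.681, 0.554, 0.816 and 0.631), and all 4 differences were below 0 under cyclic loess. Lsm1, specific to the decay ring, differed by 0.30 (adjusted p = 0.39), Lsm10 by -0.27 (adjusted p = 0.405) and Lsm11 by 0.61 (adjusted p = 0.34), the last with 1 of 4 control arrays above background.

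Among the Prpf factors, 3 of 14 probe sets (13 genes) rose (21.4%, against 9.46% of all probe sets and 15.5% of those above background) and none passed as lower in limma. A raw p below 0.05 was found in 4 higher and 0 lower, and the median was 0.30. The risers described here are Prpf3 and Prpf4, which bind each other on the U4/U6 RNA duplex.

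Prpf4 read 9.08, 9.22, 8.68 and 9.25 in control replicates 1 to 4 and 9.67, 9.95, 10.20 and 9.53 in thioacetamide replicates 1 to 4, and Prpf3 read 11.70, 12.24, 12.03 and 11.73 in control replicates 1 to 4 and 12.48, 12.59, 12.51 and 12.74 in thioacetamide replicates 1 to 4. Neither gene had overlapping groups. Prpf4 rose 1.71-fold (0.78 ± 0.22, adjusted p = 0.0425) and Prpf3 1.58-fold (0.66 ± 0.19, adjusted p = 0.0482), both near the threshold. Prpf4 lost its call with 1 array left out (control replicate 1, 2 or 3, or thioacetamide replicate 1, 2 or 3, adjusted p = 0.0642 to 0.122) and under cyclic loess (0.53, adjusted p = 0.103) and under median centring (0.71, adjusted p = 0.0706) and with an intensity trend and robust estimation (0.78, adjusted p = 0.053) and without the 3 high-background arrays (0.77, adjusted p = 0.0609). Prpf3 lost its call with 1 array left out (control replicate 1, 3 or 4, or thioacetamide replicate 1, 2, 3 or 4, adjusted p = 0.0521 to 0.121) and under cyclic loess (0.56, adjusted p = 0.0948) and under median centring (0.59, adjusted p = 0.0649).

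Other Prpf proteins did not pass. Prpf8, the protein at the heart of the catalytic centre, differed by 0.12 ± 0.17 (adjusted p = 0.688) around a level of 13.3 in both groups, Prpf6, which bridges U5 and U4/U6, by 0.33 ± 0.18 (adjusted p = 0.246) with no overlap, and Prpf31, which binds U4 RNA, by -0.14 ± 0.19 (adjusted p = 0.667). Prpf19, the ubiquitin ligase of the activated spliceosome, differed by 0.22 ± 0.23 (adjusted p = 0.58), and Prpf18, a late factor for the second catalytic step, by -0.20 ± 0.21 (adjusted p = 0.566). Prpf38a, an activation factor, differed by 0.76 (adjusted p = 0.149). The probe sets of Prpf40b gave 0.29 and -0.09 (adjusted p = 0.35 and 0.847).

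**Figure D3:**
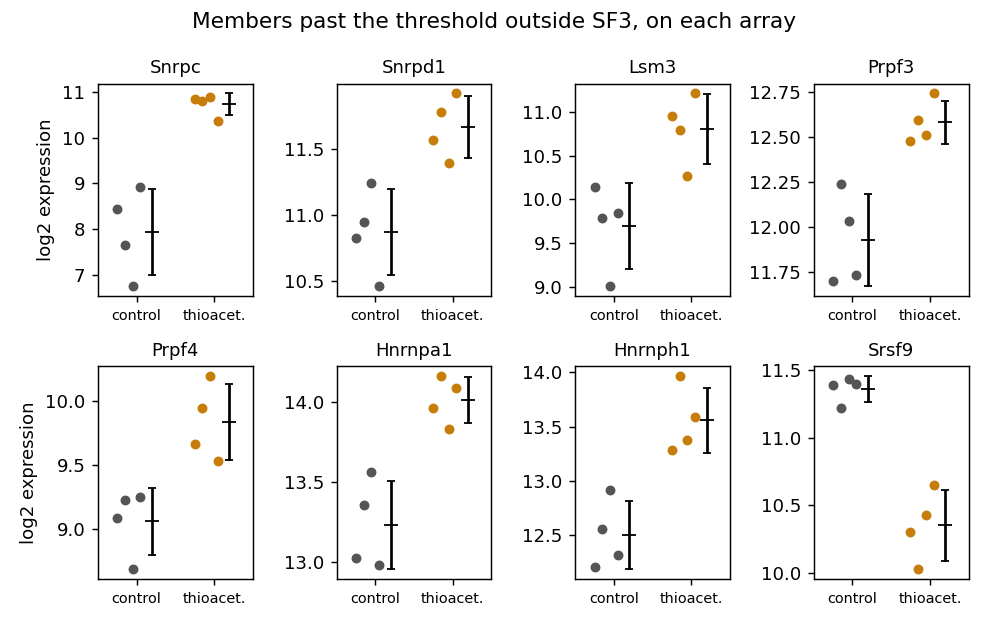
Log2 expression on each array (4 control and 4 thioacetamide, each panel with its own axis that does not start at 0) of 8 members past the threshold outside SF3A and SF3B, with the mean and SD of each group beside the points. Groups are apart in all 8 panels, with Srsf9 lower and the others higher in treated rats.

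No SR protein passed as higher, and 1 of 16 probe sets (11 genes), Srsf9, fell (6.25%, against 5.14% of all probe sets and 8.46% of those above background). In limma a raw p below 0.05 was found in 3 higher and 1 lower, and the median was 0.09. Srsf9 (SRp30c), a short SR protein that can oppose as well as favour exon inclusion, read 11.39, 11.22, 11.43 and 11.39 in control replicates 1 to 4 and 10.30, 10.03, 10.43 and 10.65 in thioacetamide replicates 1 to 4. The controls were tight and every treated array lay clearly below them. It fell 2.01-fold (log2 difference -1.01 ± 0.19, adjusted p = 0.00712), and kept the call in all 8 fits with 1 array left out (-1.11 to -0.90).

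The other SR proteins did not pass. Counted as 1 probe set per gene (the brightest), 9 of the 11 SR genes had positive differences, with a median of 0.18. The 2 with negative differences were Srsf9 and Srsf4. Srsf10, which acts as a repressor when dephosphorylated, differed by 0.57 ± 0.18 (adjusted p = 0.0584), and Srsf3, the smallest SR protein and one that hepatocytes need in mice, by 0.49 ± 0.17 (adjusted p = 0.0854), both with non-overlapping groups. Srsf1, the founding member, differed by 0.18 ± 0.20 (adjusted p = 0.612) and Srsf2 (SC35) by 0.06 ± 0.34 (adjusted p = 0.925). All 6 probe sets of Srsf4, annotated in the files as isoforms of 1 gene, had negative differences between -0.29 and -0.16, and none passed. They are not independent readings, since they share a gene and may share probes. Srsf12 differed by 1.08 ± 0.38 with overlapping groups and did not pass (adjusted p = 0.0885). It was above background on no control array and on all 4 treated arrays, but backgrounds differed. Control replicate 2 at 7.25 counted as below its background of 7.36, and thioacetamide replicate 3 at 6.92 as above its background of 6.73. The bound on the treated mean, 1.08-fold higher, is thus for a difference that did not pass. Such bounds set the treated mean against the higher of the background and the measured value on each control array.

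Of 5 genes that once carried Sfrs symbols, none passed, where 9.46% of all probe sets rose and 5.14% fell. All 5 differences were positive (raw p below 0.05 in 2 and 0 in limma), as were 12426 of all 26208. Tra2b, which activates exons with purine-rich enhancers, read 12.61, 12.77, 12.94 and 12.80 in control replicates 1 to 4 and 13.10, 13.45, 13.27 and 13.48 in thioacetamide replicates 1 to 4. The groups did not overlap and the difference was 0.55 ± 0.18 (adjusted p = 0.0737). Sugp2 differed by 1.13 (adjusted p = 0.0533), with 1 of 4 control arrays above background, and Scaf4, Sfswap and Srek1 by 0.39, 0.29 and 0.21 (adjusted p = 0.245, 0.461 and 0.521).

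The hnRNPs, abundant proteins that coat nascent transcripts, showed many moderate positive differences. Of 23 probe sets (20 genes), 2 rose (8.7%, against 9.46% of all probe sets and 15.5% of those above background) and none passed as lower. At a raw limma p below 0.05, 12 of the 23 were higher and 0 lower, where 4440 and 3299 of all 26208 probe sets were. In 11 of the 23 (47.8%) every treated array exceeded every control array, against 13.9% of all probe sets and 23.0% of those above background. The median difference of the 23 was 0.48. Hnrnph1, which binds runs of G, read 12.21, 12.56, 12.91 and 12.32 in control replicates 1 to 4 and 13.29, 13.96, 13.38 and 13.59 in thioacetamide replicates 1 to 4. All treated arrays exceeded all controls, and the rise was 2.08-fold (1.06 ± 0.23, adjusted p = 0.0135).

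Hnrnpa1, a repressor of exon inclusion that often counters Srsf1, read 13.03, 13.35, 13.56 and 12.98 in control replicates 1 to 4 and 13.96, 14.16, 13.83 and 14.09 in thioacetamide replicates 1 to 4. The groups did not overlap, though control replicate 3 came near the lowest treated array. It rose 1.72-fold (0.78 ± 0.20, adjusted p = 0.0278), and the call was lost with 1 array left out (control replicate 1 or 4, or thioacetamide replicate 1, 2 or 4, adjusted p = 0.0563 to 0.091). Probe sets of Hnrnpa1-ps47 and Hnrnpa1-ps33, now annotated as pseudogenes, gave 0.34 (adjusted p = 0.287) and -0.24 (adjusted p = 0.597), and signal from such copies cannot be separated from that of their parent genes here.

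Several hnRNPs missed the threshold narrowly with groups apart. Hnrnpll, a regulator of Cd45 splicing in lymphocytes, differed by 0.95 ± 0.29 (adjusted p = 0.0541), Hnrnpu, a nuclear scaffold protein, by 0.63 ± 0.19 (adjusted p = 0.0547), Hnrnpf, a relative of Hnrnph1, by 0.55 ± 0.17 (adjusted p = 0.0564) and Hnrnpa3 by 0.64 ± 0.20 (adjusted p = 0.0597). The probe sets of Hnrnpl, which binds CA-rich elements, gave 0.48 and 0.48 (adjusted p = 0.0875 and 0.103), whereas those of Hnrnpd (AUF1), which the files assign to isoforms b and c, gave -0.23 and 0.16 (adjusted p = 0.546 and 0.642). Hnrnpk, a poly(C) binding protein, differed by 0.37 (adjusted p = 0.188) and Hnrnpa2b1 by 0.22 (adjusted p = 0.467). Hnrnph2, on the X chromosome, had the most negative difference (-0.29 ± 0.19, adjusted p = 0.346), and Hnrnpa0 was below background on all 8 arrays.

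**Figure D4:**
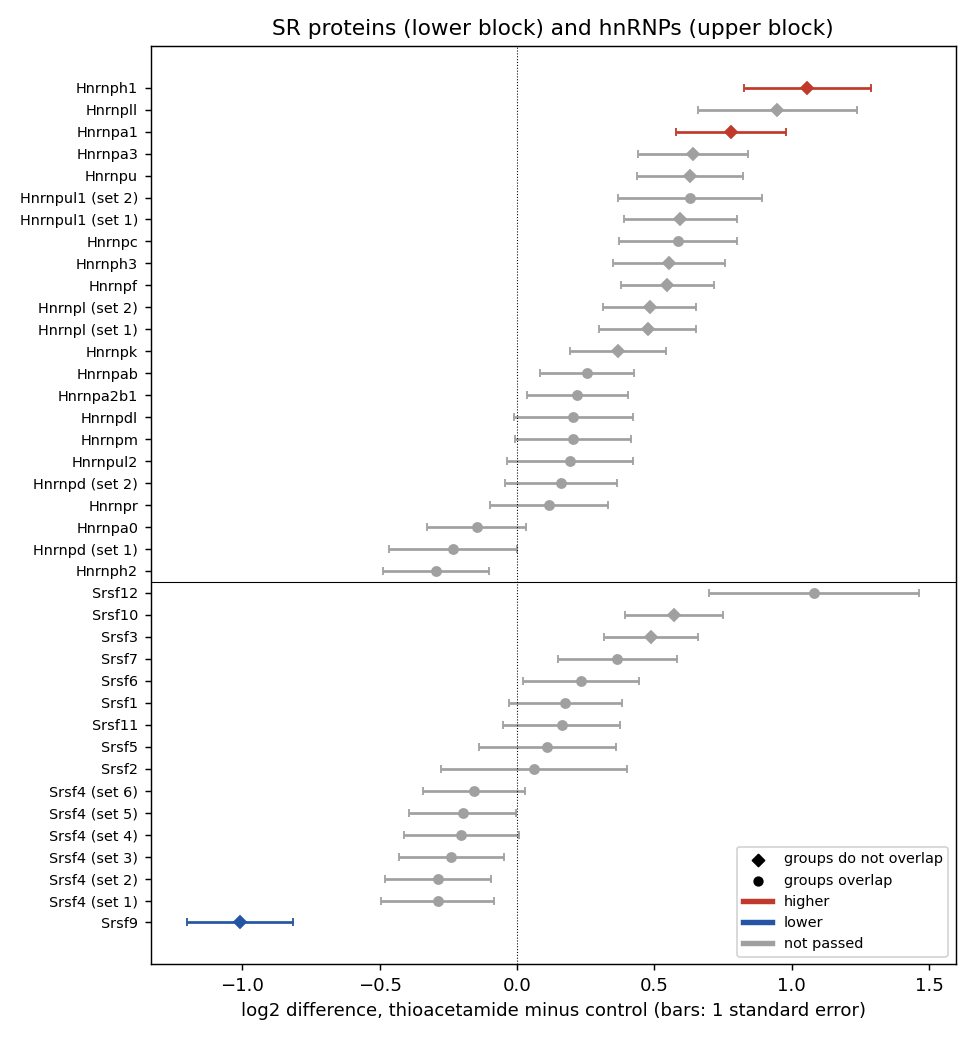
Log2 difference and standard error of each SR protein (lower block) and hnRNP (upper block) probe set, with red for a rise and blue for a fall past the threshold, grey for not passed, and diamonds where the groups did not overlap. Most hnRNPs lie to the right of 0, with Hnrnph1 at 1.06 and Hnrnpa1 at 0.78 past the threshold. The SR proteins to the left of 0 are Srsf9, at -1.01, and all probe sets of Srsf4. With 1 probe set per gene, 9 of 11 SR genes and 18 of 20 hnRNP genes had positive differences.

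Of 13 probe sets of copies that RefSeq now names as pseudogenes or like genes, 0 passed in limma (raw p below 0.05 in 1 higher and 0 lower). Of all probe sets 9.46% rose and 5.14% fell. Among the 13, 7 were above background on all 8 arrays and 3 on none, so few could show a change. The differences of the 13 ran from -0.32 to 0.71, the latter for Hnrnpa3l1 (adjusted p = 0.161). The symbol rule also took in Lsmem1 and Lsmem2, membrane proteins that share only the prefix, and Edc3, a decapping factor formerly named Lsm16. None of these passed (Edc3 0.30 (adjusted p = 0.515), Lsmem2 -0.42 (adjusted p = 0.406)).

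Genes of the same pathway outside the symbol rule were counted from lists of spliceosome components, other splicing regulators, SR protein kinases, snRNP assembly factors and the exon junction complex, 1 probe set per gene. The shares that rose are to be read against 9.46% of all probe sets and 15.5% of those above background. Among assembly factors 7 of 15 rose (46.7%), with none passing as lower (raw limma p below 0.05 in 9 and 0) and a median of 0.64. Prmt5, the methyltransferase that modifies Sm proteins before ring assembly, read 10.73, 10.39, 10.27 and 10.75 in control replicates 1 to 4 and 12.31, 12.62, 12.67 and 12.17 in thioacetamide replicates 1 to 4. All treated arrays were far above the controls, a 3.75-fold rise (1.91 ± 0.21, adjusted p = 0.000342). Its partner Wdr77 (MEP50) rose 4.13-fold (2.05 ± 0.41, adjusted p = 0.00916), with 3 of 4 control arrays above background. Smn1, the core of the complex that loads Sm rings onto RNA, rose 2.46-fold (1.30 ± 0.20, adjusted p = 0.00221).

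Of 58 further spliceosome components 17 rose (29.3%) and none passed as lower (raw p below 0.05 in 28 and 0), and the median was 0.45. One of the 17, Crnkl1 in the files, is named as a pseudogene, Crnkl1-ps1, in RefSeq (0.88 ± 0.21, adjusted p = 0.02), and without it 16 of 57 rose. The largest rises were Dhx38 (PRP16), a helicase of the second step, at 1.29 ± 0.35 (adjusted p = 0.0348), and Ppie, a cyclophilin of the spliceosome, at 1.24 ± 0.35 (adjusted p = 0.0402), with 3 of 4 control arrays above background. Of 42 other regulators 8 rose (19.0%, near the share of probe sets above background) and none passed as lower (raw p below 0.05 in 14 and 2). Fubp1 rose 2.37-fold (1.24 ± 0.20, adjusted p = 0.00305). Ptbp2, a repressor best known from neurons, was not above background on any control array and passed the test (adjusted p = 0.0126), with a treated mean of 7.42 that was at least 1.08-fold higher than the control background level. Among 8 kinases of SR proteins, Srpk1 rose 2.34-fold (1.22 ± 0.21, adjusted p = 0.00439) and Dyrk1a 1.66-fold (0.73 ± 0.17, adjusted p = 0.0165), while Clk2, Clk3 and Clk4 differed by -0.37, -0.29 and -0.22 and did not pass. In the exon junction complex 1 of 6 rose, Casc3 (1.03 ± 0.19, adjusted p = 0.00657), and of 5 Snrnp genes that the prefix does not take in, Snrnp40 of the U5 particle rose (0.70 ± 0.19, adjusted p = 0.0385).

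Some markers of other cell states differed between the groups. Their counts are to be read against 9.46% of all probe sets that rose and 5.14% that fell. Of 10 genes of cycling cells 9 rose, of which Ccna2 was above background on no control array, and their summed level (log2 of the sum of linear values) was 11.37 to 12.35 over controls and 13.50 to 13.77 over treated arrays. Hepatocyte markers could not show a change well, since 9 of 10 had group means between 15.33 and 15.73 where the array maxima were 15.89 to 15.98, and none of the 10 passed (raw limma p below 0.05 in 0). Of these Ass1 had all treated arrays below all controls (-0.21 ± 0.17, adjusted p = 0.444), and Hnf4a, the marker at a lower signal, differed by -0.35 ± 0.24 (adjusted p = 0.367). Of 8 macrophage markers, all with negative differences (-1.48 to -0.06), 3 fell (14.71 to 15.55 against 14.16 to 14.82, summed levels that overlap). Of 8 lymphocyte markers, 3 with positive and 5 with negative differences, 2 fell (10.90 to 11.71 against 10.25 to 10.59). The falls were in Gzma and Nkg7, whereas Cd3e, Cd3g and Cd2 were above background on no control array and Cd3g differed by 0.70 ± 0.26 (adjusted p = 0.105). Of 6 bile duct markers 2 rose (10.88 to 12.42 against 12.64 to 13.13), with differences from -0.31 to 3.52 over the 6. Of 7 stellate markers 2 rose (13.92 to 14.95 against 14.50 to 15.12, which overlap), of which Des was above background on no control array. Differences of the 7 ran from -0.71 to 1.01. Of 5 endothelial markers 1 fell (13.26 to 13.62 against 12.75 to 13.08), with differences from -0.91 to 0.73 over the 5. The part of these in the splicing factor differences was not tested.

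**Figure D5:**
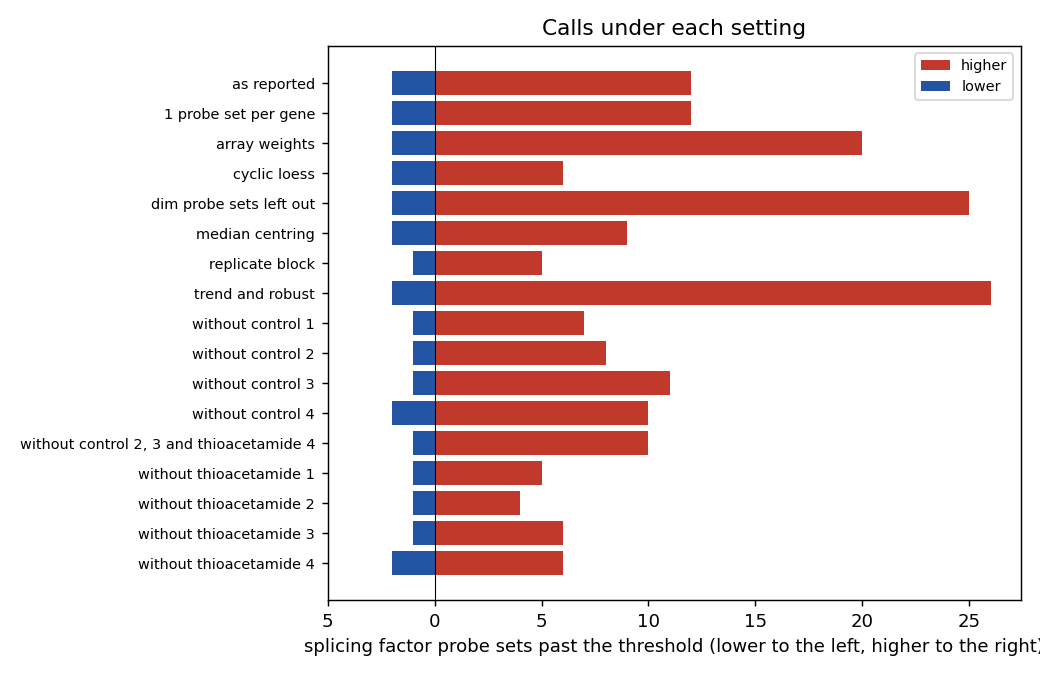
Number of splicing factor probe sets past the threshold (x axis, rises in red to the right of 0 and falls in blue to the left) in the reported fit and in each alternative (rows). Rises number 12 as reported, between 4 and 11 with 1 array left out, 6 under cyclic loess and 26 with an intensity trend and robust estimation, while falls number 1 or 2 throughout. The shares of all probe sets that rose were 9.46%, 5.52% to 9.29%, 7.62% and 10.5% in the same order.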

How the data were processed

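Liver RNA was hybridised to 8 NimbleGen 1-colour (Cy3) arrays, 4 animals a group per the series' design text. The deposited values are log2 expression values, 1 per probe set, which the authors made with RMA per the submitters' processing notes; neither its version and settings nor a genome build is stated. The files also give a standard error per value, not used here. The series table and the sample files held identical values (largest difference 0), and control replicate 4 lacked 11 probe sets, none of them a splicing factor. Probe sets were named by gene identifier (20543), accession (31) or the files' symbol (5634) through RefSeq's GRCr8 table.

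The log2 values were tested as deposited with limma 3.58.1 (lmFit and eBayes, R 4.3.3), two-sided, over all 26208 probe sets, with group as the only term. Alternatives were leaving out each array, weighting arrays, centring on the median, cyclic loess, dropping dim probe sets, the replicate block, robust estimation with a trend, and 1 probe set per gene. The fit was tested on simulated data with the means and spreads of these arrays. It recovered 25% of 100 probe sets changed 2-fold and 81% of 100 changed 4-fold, with 8 false calls among 114. Only these 100 and 100 of 26197 probe sets were changed in the simulation, whereas 3827 passed in the data. With fewer calls the adjusted threshold is stricter, so these shares do not measure recovery in the reported fit. A member that did not pass may still have changed. Precision is limited by the number of arrays.

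The members, role groups and lists were chosen with earlier results of these data known, so list counts are descriptions. Genes were named by a rule: per role group the 3 largest rises and falls past the threshold (or the 2 largest differences), the 10 largest rises and falls, genes whose probe sets disagreed, and per pathway list the 2 largest rises and falls. All other genes described, Sf3b2, Smn1 and Phf5a included, were named after their values were seen. Copies named as pseudogenes or like genes were set apart as a role group after the annotation was read. The values of 1 member past the threshold are not reported here.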

Additional observations from a re-analysis of the deposited data

Results flagged for a closer look

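Over the genes described, a test of the gap between the extreme array and its neighbour, relative to the range of the 4 arrays of a group, picked out 10 arrays. It was run on both groups of each of the 108 probe sets described, and chance alone passes about 1 in 20 groups. The 10 picked are thus about as many as chance alone would give. The values below are each picked array against the range of the other arrays of its group. Prpf6 in control replicate 2 was 11.90, against 12.09 to 12.09. Srpk1 in thioacetamide replicate 2 was 12.29, against 11.89 to 11.94. Srsf3 in control replicate 2 was 12.31, against 12.23 to 12.25. Snrpd3 in thioacetamide replicate 4 was 14.31, against 13.38 to 13.45. Snrpn in control replicate 3 was 7.41, against 8.82 to 8.89. Snrpa in control replicate 2 was 7.25, against 8.84 to 9.10. Snrpc in thioacetamide replicate 4 was 10.37, against 10.81 to 10.89. Hnrnpa2b1 in thioacetamide replicate 4 was 13.40, against 13.62 to 13.66. Hnrnph2 in thioacetamide replicate 3 was 11.29, against 10.93 to 10.99. Ppie in control replicate 3 was 7.48, against 8.89 to 9.13.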

How the results depend on the processing

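Against 12 members higher and 2 lower as reported, 20 were higher with array weights (18.5%, against 11.5% of all probe sets), 25 with dim probe sets left out (26.3%, against 19.8%), 26 with an intensity trend and robust estimation (24.1%, against 10.5%), and 6 under cyclic loess (5.56%, against 7.62%); the cause was not tested, except that leaving out dim probe sets reduces the number tested to 14240. With 1 array left out the counts ranged from 4 to 11 higher (3.7% to 10.2%, against 5.52% to 9.29% of all probe sets) and from 1 to 2 lower, and 1 was lower without control replicates 2 and 3 and thioacetamide replicate 4. The median difference was positive in each setting, from 0.124 under cyclic loess to 0.296 without thioacetamide replicate 3. The replicate number as a block gave 5 higher and 1 lower (4.63% higher, against 5.63% of all probe sets). Same-numbered arrays did not stand out (r = 0.246, -0.098, -0.126 and -0.431 across probe sets), where differently numbered pairs ran from -0.377 to 0.431. Deviations from a mean of 4 arrays must balance, so these values cannot tell whether same-numbered arrays were processed together. Over all probe sets cyclic loess gave 1998 higher and 1736 lower, against 2480 and 1347. Of 1609 values of 108 single probe sets (described members and list genes) under alternatives, 1403 kept direction and call, 127 lost the threshold, 47 gained it and 32 changed sign, all of the last for genes that did not pass as reported. Under cyclic loess the changed differences were -0.0276 for Lsm4, -0.0006 for Lsm5, -0.0960 for Lsm7, -0.0503 for Lsm8, -0.1852 for Srsf2, -0.0505 for Snrpf, -0.0003 for Snrpe-ps1, 0.0743 for Alb and 0.0045 for Hnrnpa0. With 1 array left out the ranges were -0.0790 to 0.0106 for Alb, -0.3781 to -0.0767 for Clk4, -0.0047 to 0.3232 for Lsm7, 0.0206 to 0.3433 for Lsm8, -0.2090 to 0.1139 for Prpf40b (1 of its probe sets), -0.2983 to -0.0335 for Snrnp70, -0.2871 to 0.1011 for Snrpb2 (1 of its probe sets), -0.0550 to 0.2880 for Snrpel1, -0.1549 to 0.3021 for Snrpf, -0.3167 to 0.0256 for Snrpg (1 of its probe sets) and -0.1831 to 0.2536 for Srsf2. Without the 3 high-background arrays the changed differences were -0.0832 for Lsm8, 0.0084 for Prpf40b (1 of its probe sets), 0.1978 for Clk4, -0.2891 for Srsf2, 0.1456 for Snrnp70 and 0.1423 for Snrpb2 (1 of its probe sets). Only 88 of 108 members were above background on all 8 arrays, which limits the others.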
